A study of Mus musculus with 79 samples.

Results

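The 10 non-opioid neuropeptide genes described here are Tac1, Tac2, Cartpt, Nts, Cck, Sst, Npy, Vip, Crh and Adcyap1, each the precursor gene of 1 or more secreted signaling peptides. They were chosen by name from the 25899 gene symbols of the expression table, and all 10 were present. Their levels were compared across 5 groups of libraries set by dopamine receptor and brain region. The choice of genes was made with earlier results of these data known.

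The libraries hold mRNA bound to ribosomes that carry a green fluorescent protein tag on the ribosomal protein L10a (bacTRAP). A bacterial artificial chromosome transgene drives the tagged protein from the promoter of the dopamine D1a receptor gene or of the D2 receptor gene, so ribosomes can be captured with an antibody from the cells that use that promoter. All mice were heterozygous for such a transgene on a C57BL/6J background, and the labels give no treatment. The groups were D1 dorsal striatum (15 libraries), D2 dorsal striatum (16), D1 ventral striatum (15, punched from nucleus accumbens), D2 ventral striatum (14) and D1 prefrontal cortex (19). Each library pooled tissue of 3 mice; 77 pools held both sexes, and the sex label of 2 cortex pools is incomplete. No untransgenic control or unbound RNA was analysed here, so every value is a level within a capture. Every cell type that uses the promoter is captured, and free RNA may be carried along.

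Neuropeptides are cut from larger precursors inside the regulated secretory pathway, stored in dense-core vesicles and released to act mainly on G protein-coupled receptors. In the striatum, projection neurons of the direct pathway carry D1 receptors and are known for substance P, the product of Tac1. Neurons of the indirect pathway carry D2 receptors and are known for enkephalin, an opioid peptide that is not treated here. Somatostatin, neuropeptide Y and vasoactive intestinal peptide are known in the forebrain as markers of GABA interneuron classes, and cholecystokinin is made by cortical pyramidal cells as well as by interneurons.

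Several of these genes are textbook targets of cAMP signaling, which D1 and D2 receptors move in opposite directions, so the start regions were searched for the cAMP response element. RefSeq start regions on GRCm38.p6 (from 250 bases before to 50 bases after the start) were given for 9 of the 10 genes, the exception being Crh. The full palindrome TGACGTCA occurred in 2 of the 9, Sst and Cartpt, and in 1.79% of the 32851 start regions of the same length. Its 5-base part TGACG, searched on both strands and contained in every full match, occurred in 7 of the 9 and in 20.8% of all regions. The TATAAA motif occurred in 2 of the 9 (Adcyap1 and Vip) and in 13.6% of all regions. A member was counted if any of its given regions matched, whereas the percentages are of single regions, so these measures differ. The full matches of Sst and Cartpt and, for contrast, 2 genes with the 5-base match alone are printed below as 30 bases on the gene's own strand, 5′ to 3′, with the match in capitals.
Sst: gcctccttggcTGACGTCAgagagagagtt
Cartpt: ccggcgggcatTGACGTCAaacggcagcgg
Cck: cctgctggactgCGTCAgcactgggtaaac
Vip: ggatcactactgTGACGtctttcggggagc
These lie at chr16:23890874-23890903 (minus strand), chr13:99900777-99900806 (minus), chr9:121495724-121495753 (minus) and chr10:5639127-5639156 (plus). The matches begin 48, 112, 47 and 79 bases before the RefSeq start. The GENCODE bounds of Sst and Cartpt printed with the members begin farther upstream than the RefSeq starts, so these 2 sites lie inside those bounds. A match describes letters, and no binding was measured in these libraries. The levels of the 2 genes with the full match did not follow 1 pattern: Cartpt was highest in ventral striatum and Sst in prefrontal cortex.

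Across the 79 libraries, 7.35 to 30.8 M reads fell in listed genes (median 17.5 M), and 1 read was worth 0.0124 to 0.0466 CPM, the authors' read counts scaled to a common library total (M reads are Mega-reads, the unit of that total). The cDNA was amplified and reads are not independent molecules, so depth bounds counting error only. The receptor genes matched the labels of the striatal groups. Drd1a (the D1 receptor gene by its older symbol) had median levels of 232 and 156 CPM in D1 dorsal and ventral striatum against 12.1 and 15.1 CPM in the D2 groups. Drd2 had medians of 1146 and 625 CPM in the D2 groups against 5.53 and 7.98 CPM in the D1 groups. In D1 prefrontal cortex Drd1a had a median of only 16.7 CPM. A summed level of 6 cortical glutamatergic neuron markers, among them Slc17a7, Neurod6 and Tbr1, had a median of 668 CPM in prefrontal cortex, 103 in D1 dorsal striatum, 69.1 in D1 ventral striatum, 8.86 in D2 dorsal striatum and 12.5 in D2 ventral striatum. Library names begin with 1 of 4 letter codes of unstated meaning, and the code OdP is borne by 8 of 16 D2 dorsal striatum, 5 of 14 D2 ventral striatum and 1 of 15 D1 ventral striatum libraries, so values within the code EM are given beside each call of a member that they change. Consecutive library names often alternate between regions, but no label says that such libraries share mice, so each was treated as independent and p-values measure the spread between pools. In bulk samples, fewer cells of a type and less RNA per cell cannot be told apart.

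The member with the highest mean differed by group when levels were set per kb of exonic length, which allows genes to be compared. In D1 dorsal striatum it was Tac1 with 52 ± 19.5 CPM per kb (SD, n = 15), ahead of Cck with 28 ± 8.54 and Sst with 25.3 ± 11.2. In D1 ventral striatum Tac1 again led with 39.5 ± 8.92 CPM per kb (n = 15), followed by Cartpt with 16.1 ± 4.14. In D2 dorsal striatum Sst with 8.38 ± 4.67 and Tac1 with 5.83 ± 2.68 CPM per kb (n = 16) came first and lay within 1 SD of each other. In D2 ventral striatum Sst with 15.6 ± 6.83 and Cartpt with 14.5 ± 7.36 CPM per kb (n = 14) were within 1 SD of each other. In D1 prefrontal cortex Cck led with 226 ± 73.3 CPM per kb (n = 19), ahead of Sst with 101 ± 49.8 and Npy with 39.5 ± 12.1. Crh and Adcyap1 were at or below 1.03 CPM per kb in every group.

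**Figure D1:**
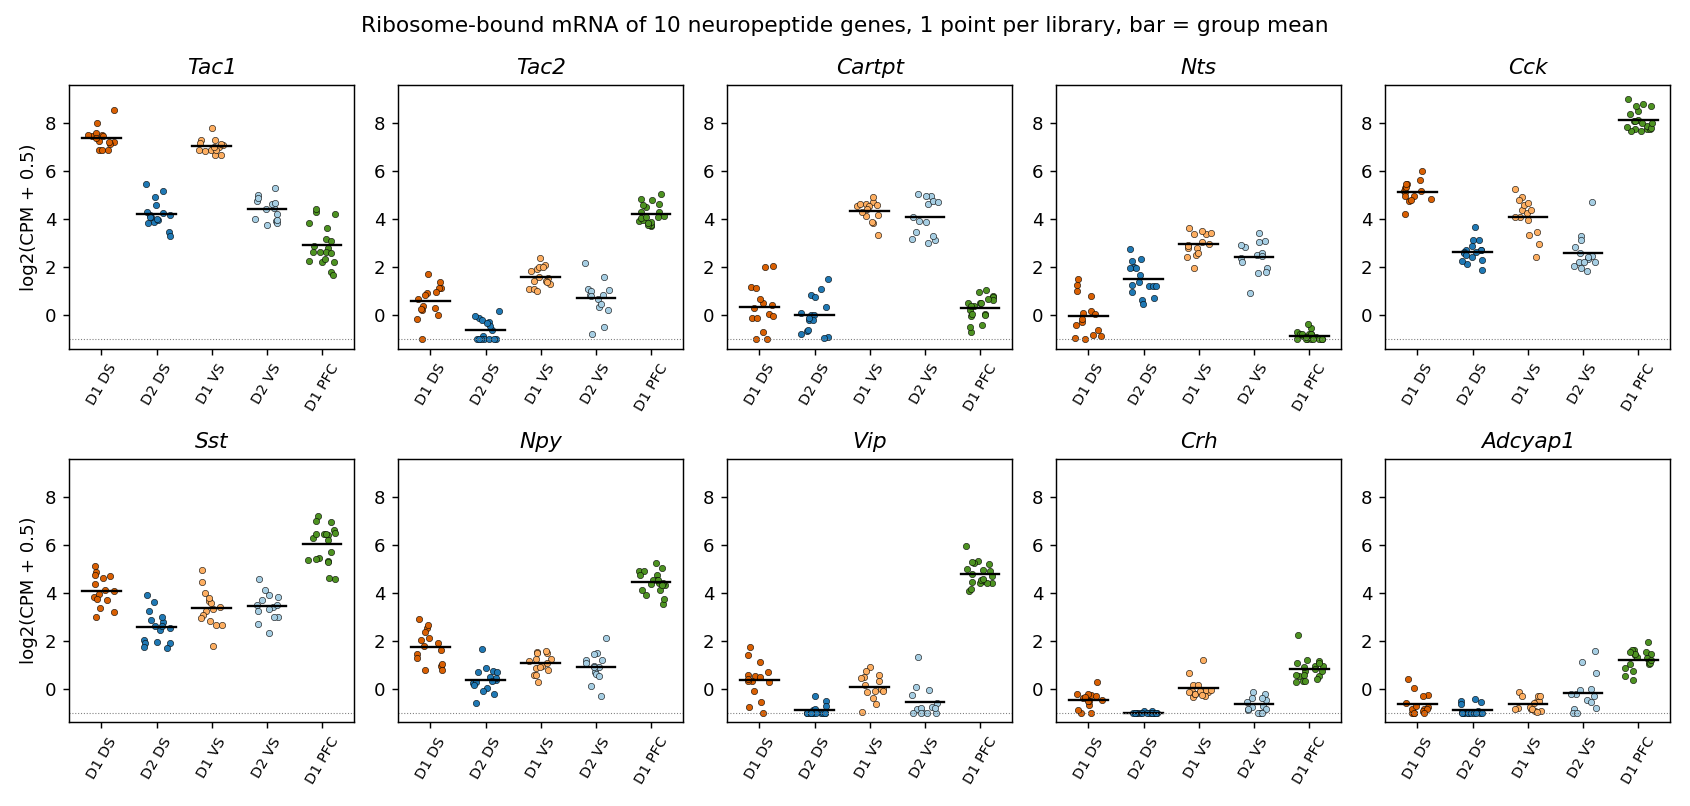
Level of each member in every library, as log2(CPM + 0.5), by group (DS dorsal striatum, VS ventral striatum, PFC prefrontal cortex); points are libraries, bars are group means, and the dotted line is 0 CPM. Tac1 separates D1 from D2 striatum, Cartpt separates ventral from dorsal striatum, and 7 of the 10 genes (Tac2, Cck, Sst, Npy, Vip, Crh, Adcyap1) have their highest mean in prefrontal cortex.

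Each comparison was fitted over the whole table with limma on log2(CPM + 0.5), and a gene is said to have changed where its adjusted p was under 0.05. A member entered a fit only if it reached 1 CPM in a number of libraries equal to the size of the smaller group, and a member that entered through the group where it is high was bound to differ, so the counts describe and do not support. Between D1 and D2 in dorsal striatum, 5 members entered: 4 were higher in D1 (12.8% of all genes tested were) and 1 was lower (13% of all genes), and 2 had libraries that did not overlap between groups (1.18% of all genes). In ventral striatum 7 members entered, 4 were higher in D1 (24.1% of all genes), 0 were lower (23.6%) and 1 did not overlap (1.34%). At an unadjusted p under 0.05, too, these 4 were all, against 6178 of all 11410 genes tested. edgeR's quasi-likelihood test on the recovered reads also called 4 higher and 0 lower there (21.5% and 25.5% of all genes by edgeR).

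Between dorsal and ventral striatum in D1, 7 members entered: 4 were higher dorsally (10.1% of all genes), 3 were lower (24.5%) and 2 did not overlap (2.65%). In D2, 6 members entered, 0 were higher dorsally (7.93%), 4 were lower (20.6%) and 1 did not overlap (1.46%). There edgeR called 0 higher and 3 lower (12.1% and 11.8% of all genes by edgeR). By limma at an unadjusted p under 0.05 the 4 lower members were again all, against 4354 of all 11187 genes tested. In both of these comparisons the median gene had a log2 difference of -0.12, and scaling by median-ratio size factors moved the calls from 1144 higher and 2774 lower to 1663 and 1642 in D1, and from 887 and 2302 to 1398 and 1336 in D2. Prefrontal cortex against dorsal striatum in D1 gave 7 members tested, 6 higher in cortex (32.3% of all genes), 1 lower (22.5%) and 5 that did not overlap (10.5%). Against ventral striatum 9 entered, 6 were higher (27.7%), 3 were lower (35.1%) and 8 did not overlap (12.6%). Of the GABA interneuron markers listed under Npy, 8 of 8 tested were higher in cortex than in dorsal striatum. Against ventral striatum 6 of 8 were. All 4 astrocyte markers (Gfap, Aqp4, Slc1a3, Aldh1l1) were higher in cortex in both comparisons (32.3% and 27.7% of all genes). The part of these cells in the member values was not tested. The comparisons share groups: both cortical ones use the same cortex libraries, and each striatal group enters at least 2 comparisons.

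**Figure D2:**
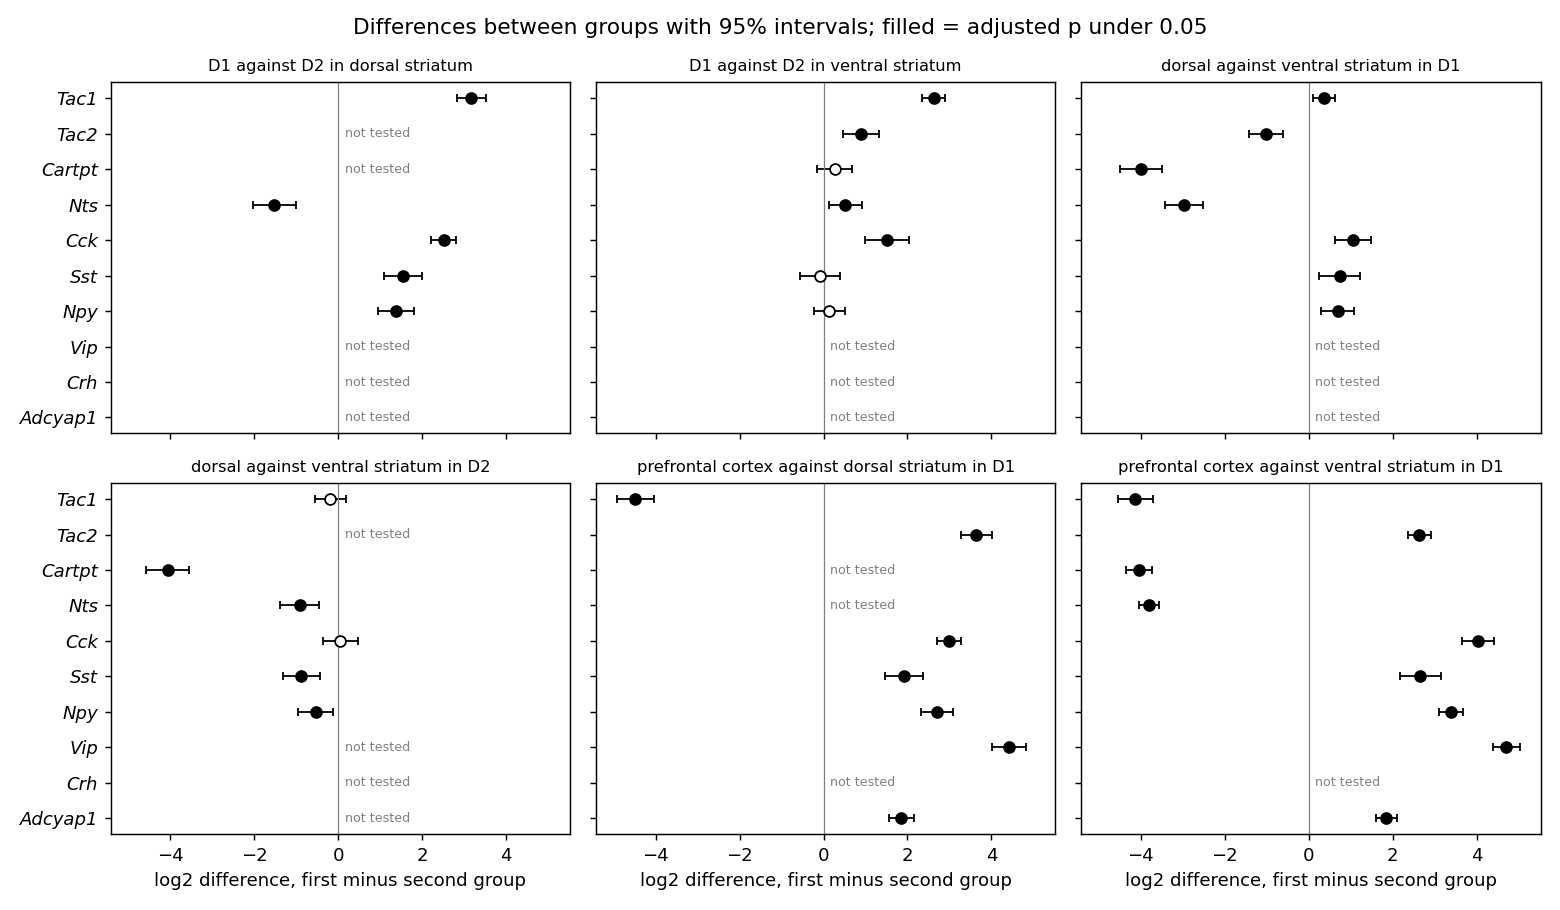
Log2 differences of the members in the 6 comparisons between 2 groups (x axis, first minus second group) with 95% intervals; filled points passed an adjusted p of 0.05 and genes too low to enter a fit are marked as not tested. The Tac1 points lie far to the right in both receptor comparisons, and the Cartpt points lie near -4 in both comparisons of dorsal with ventral striatum.

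Tac1 (chr6:7554879-7565834, plus strand) encodes preprotachykinin A, the precursor of substance P and neurokinin A. It ranged from 117 to 376 CPM in D1 dorsal striatum (median 166) and from 9.33 to 43.3 CPM in D2 dorsal striatum (median 17.1). In ventral striatum it ranged from 101 to 224 CPM in D1 (median 128) and from 13.2 to 38.8 CPM in D2 (median 21.4). Every D1 library therefore lay above every D2 library of its region. The log2 difference was 3.17 (SE 0.17, adjusted p = 2.45e-17) dorsally and 2.63 (SE 0.14, adjusted p = 2.02e-17) ventrally, with 15 of 15 D1 libraries above all D2 libraries in each. The change of the receptor difference between regions was 0.54 (95% interval 0.09 to 1.00, adjusted p = 0.227) and did not pass the test.

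Within D1 neurons Tac1 was 0.35 higher on the log2 scale in dorsal than in ventral striatum (SE 0.13, adjusted p = 0.0313), a call that was lost with no filter on low genes (adjusted p = 0.0538) and with all 5 groups in 1 fit (adjusted p = 0.180). The D2 groups differed by -0.19 (95% interval -0.55 to 0.18). In D1 prefrontal cortex Tac1 ran from 2.71 to 20.9 CPM (median 5.72), below every D1 striatal library. The differences were -4.48 (SE 0.22, adjusted p = 6.08e-21) against dorsal and -4.13 (SE 0.20, adjusted p = 4.69e-21) against ventral striatum. Within cortex, the Tac1 level and the summed level of 7 striatal projection neuron markers were both highest in replicate 6 (20.9 and 377 CPM); the median library had 78.8 CPM of those markers, and replicates 1 and 10, with 237 and 62.0 CPM, had 19.2 and 18 CPM of Tac1. Without replicate 6 the cortical differences were -4.57 and -4.21. How much of the cortical Tac1 signal moves with striatal RNA was not tested.

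Tac2 (chr10:127724478-127731768, plus strand) encodes the precursor of neurokinin B, the tachykinin that prefers the receptor Tacr3. It was highest in prefrontal cortex, at 12.5 to 32.9 CPM (median 16.5), and all 19 cortex libraries exceeded every striatal D1 library. In striatum its median was 2.38 CPM in D1 ventral (1.48 to 4.64), 1.24 in D2 ventral (0.0727 to 3.97), 1.11 in D1 dorsal (0 to 2.81) and 0.0979 CPM in D2 dorsal (0 to 0.634). Cortex was higher by 3.64 (SE 0.18, adjusted p = 1.02e-20) than dorsal and by 2.63 (SE 0.14, adjusted p = 1.91e-20) than ventral striatum. Within D1 striatum the ventral libraries were higher, the dorsal minus ventral difference being -1.01 (SE 0.20, adjusted p = 0.000115).

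Between receptors in ventral striatum, Tac2 was 0.90 higher in D1 (SE 0.21, adjusted p = 0.000840), but the libraries overlapped and the difference was 0.04 (adjusted p = 0.932) with the cortical marker level (the mean log2 level of the 6 markers) as a covariate and 0.54 (adjusted p = 0.233) with the gene-mapped read share instead. In dorsal striatum it was too low to enter the fit: 8 of 16 D2 libraries held 3 reads or fewer, against 1 of 15 D1 libraries. There 12 of 15 D1 libraries lay above every D2 library.

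Cartpt (chr13:99898489-99901091, minus strand) encodes the CART peptides, known in nucleus accumbens for their response to psychostimulants. It ranged from 9.71 to 29.6 CPM in D1 ventral striatum (median 22.4) and from 7.59 to 32.2 CPM in D2 ventral striatum (median 15.6). In dorsal striatum it ran from 0 to 3.68 CPM in D1 (median 0.716) and from 0.0144 to 2.36 CPM in D2 (median 0.464). Ventral and dorsal libraries did not overlap for either receptor. The dorsal minus ventral difference was -3.99 (SE 0.25, adjusted p = 3.61e-15) in D1 and -4.07 (SE 0.25, adjusted p = 5.07e-15) in D2.

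Cartpt showed no change between receptors in ventral striatum, with a D1 minus D2 difference of 0.27 (95% interval -0.14 to 0.69, adjusted p = 0.279). The change of that difference between regions was 0.07 (95% interval -0.66 to 0.80, adjusted p = 0.951). The D2 ventral libraries were uneven by name code: 25.2 ± 6.51 CPM (SD, n = 8) in EM libraries and 10 ± 2.55 CPM (SD, n = 5) in OdP libraries. In D1 prefrontal cortex Cartpt ran from 0.114 to 1.59 CPM (median 0.814), and it was 4.04 lower on the log2 scale than in ventral striatum (difference -4.04, SE 0.15, adjusted p = 5.62e-25). By mean level its order was D1 ventral, D2 ventral, D1 dorsal, prefrontal cortex and D2 dorsal, and of the 3 steps tested only that from D2 ventral to D1 dorsal striatum exceeded the spread (difference 3.72, adjusted p = 4.00e-05, permutation test, adjusted over 8 such pairs; the smallest raw p the 100000 resamples can give is 1.00e-05).

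Nts (chr10:102481756-102490486, minus strand) encodes the precursor of neurotensin and neuromedin N. It was highest in ventral striatum, with 3.40 to 11.8 CPM in D1 (median 7.04) and 1.37 to 10.3 CPM in D2 (median 5.10). In dorsal striatum it ran from 0.879 to 6.26 CPM in D2 (median 2.01) and from 0 to 2.33 CPM in D1 (median 0.379). In D1 prefrontal cortex it reached at most 0.276 CPM, and 12 of 19 libraries held 3 reads or fewer. Every D1 ventral library exceeded every D1 dorsal and every cortical library, with a dorsal minus ventral difference of -2.97 (SE 0.23, adjusted p = 9.67e-13) and a cortical minus ventral difference of -3.81 (SE 0.12, adjusted p = 1.87e-27). With cortex this near to 0 the size depends on the pseudocount: it was -5.67 with 0.1 and -2.97 with 1.

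The receptor difference of Nts had opposite signs in the 2 striatal regions. Dorsally the D1 minus D2 difference was -1.52 (SE 0.25, adjusted p = 1.64e-05), and 11 of 15 D1 libraries lay below all D2 libraries. With the cortical marker level as a covariate it was -1.67 and the call was lost (adjusted p = 0.180). Ventrally D1 was higher by 0.52 (SE 0.20, adjusted p = 0.0280), with overlapping libraries, and this call was lost within EM libraries (0.10, adjusted p = 0.647), where the D2 mean was 6.90 ± 1.85 CPM (SD, n = 8) against 2.94 ± 1.00 CPM (SD, n = 5) in OdP libraries. It was also lost with no filter (adjusted p = 0.0550) and with the name code (0.33), the gene-mapped read share (0.52) or the cortical marker level (0.53) as a covariate. Within D2, dorsal libraries were lower than ventral ones (difference -0.92, SE 0.23, adjusted p = 0.00224). Within the OdP libraries alone, an alternative chosen after seeing the data, that value was -0.48 (adjusted p = 0.301).

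Cck (chr9:121489824-121495694, minus strand) encodes cholecystokinin, one of the most widespread peptides of the cortex. It was the most abundant member in prefrontal cortex, at 202 to 519 CPM (median 259), above every striatal library. In D1 striatum it ran from 17.8 to 64.8 CPM dorsally (median 35.2) and from 4.78 to 37.5 CPM ventrally (median 18.6). In D2 striatum it ran from 3.22 to 12.1 CPM dorsally (median 5.72) and from 3.05 to 25.9 CPM ventrally (median 4.69). Dorsal D1 and D2 libraries did not overlap; ventral ones did, and the next highest D2 ventral library after replicate 2 was at 9.31 CPM.

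The D1 minus D2 difference of Cck was 2.51 (SE 0.15, adjusted p = 3.42e-16) dorsally and 1.51 (SE 0.25, adjusted p = 1.60e-05) ventrally. Cortex exceeded D1 dorsal striatum by 2.99 (SE 0.14, adjusted p = 2.08e-21) and D1 ventral striatum by 4.04 (SE 0.19, adjusted p = 1.14e-21). Dorsal exceeded ventral striatum by 1.05 in D1 (SE 0.21, adjusted p = 0.000169), while the D2 groups differed by 0.05 (95% interval -0.37 to 0.47).

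Cortical glutamatergic markers moved with Cck. All 6 of them were higher in D1 than in D2 in both striatal regions (12.8% of all genes dorsally and 24.1% ventrally). None was at 0 as a group median. Their sum ran from 33.5 to 145 CPM in D1 dorsal and from 1.57 to 39.1 CPM in D2 dorsal striatum, so the receptor groups overlapped in that sum only between 33.5 and 39.1 CPM. Ventrally it ran from 19.2 to 118 CPM in D1 and from 3.98 to 87.4 CPM in D2. The D2 libraries with the highest sum, dorsal replicate 1 and ventral replicate 2, also had the highest Cck of their groups (12.1 and 25.9 CPM). With the mean log2 level of these markers as a covariate, the D1 minus D2 difference of Cck was 1.58 (adjusted p = 0.00386) dorsally and 0.19 (adjusted p = 0.651) ventrally. Within D1, the dorsal minus ventral difference was 0.67 (adjusted p = 0.000873) with that covariate. Among 8132 genes that averaged 5 CPM or more, the gene whose residual level after group and name code was most like that of Cck over the 79 libraries was Neurod2, itself on the cortical list (Pearson r = 0.85), followed by Hs3st2 (0.76) and Olfm1 (0.75); all share libraries and depth, and the values are given as a description.

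**Figure D3:**
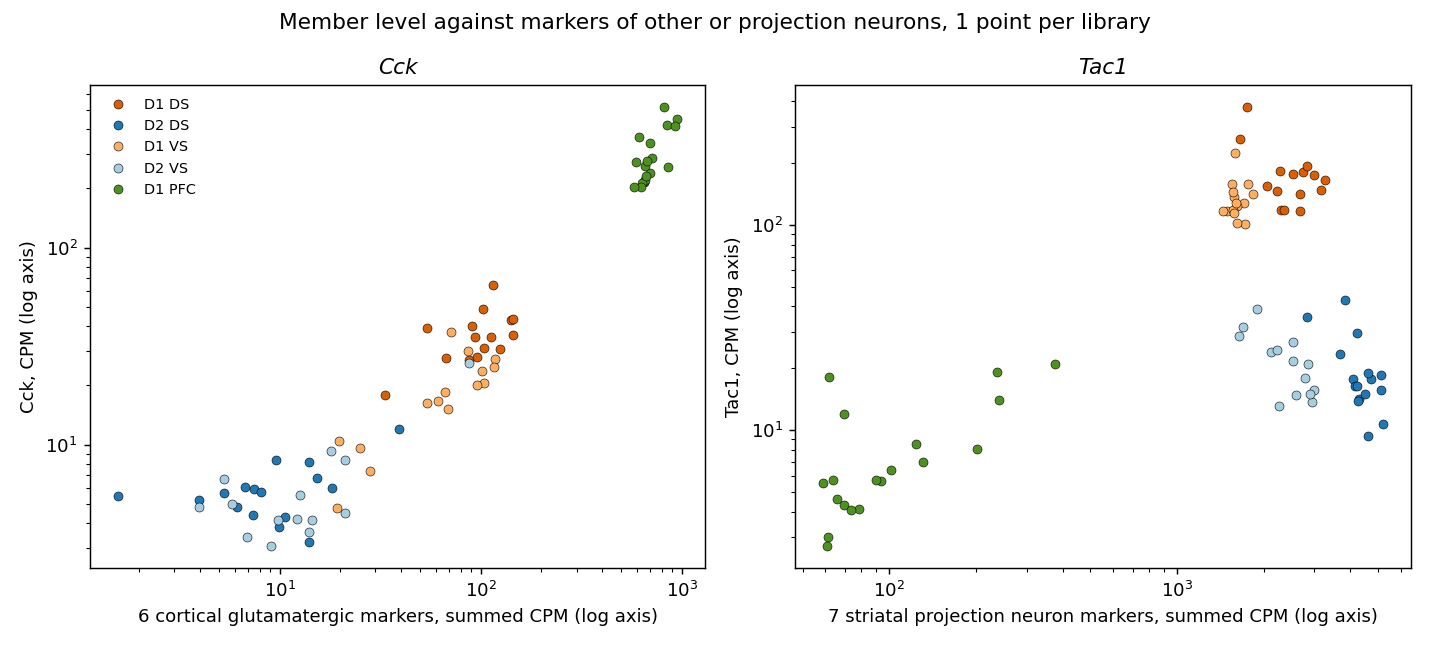
Left, Cck against the summed level of 6 cortical glutamatergic neuron markers; right, Tac1 against the summed level of 7 striatal projection neuron markers, in CPM on log axes, 1 point per library, colored by group. D2 ventral striatum replicate 2, at 87.4 CPM of cortical markers and 25.9 CPM of Cck, lies among the D1 striatal libraries, and Tac1 spans 2.71 to 20.9 CPM within prefrontal cortex.

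Sst (chr16:23889573-23890958, minus strand) encodes somatostatin, an inhibitory peptide of a GABA interneuron class. In prefrontal cortex it ran from 23.7 to 147 CPM (median 78.8). In striatum its median was 16.5 CPM in D1 dorsal (7.53 to 34.5), 5.50 in D2 dorsal (2.74 to 14.5), 9.40 in D1 ventral (2.96 to 30.3) and 10.5 CPM in D2 ventral libraries (4.58 to 23.5). All groups overlapped with their neighbors in this order. Cortex was higher than D1 dorsal striatum by 1.92 (SE 0.23, adjusted p = 1.45e-09) and than D1 ventral striatum by 2.66 (SE 0.24, adjusted p = 1.18e-12).

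Sst was 1.54 higher in D1 than in D2 dorsally (SE 0.22, adjusted p = 1.01e-06), with 9 of 15 D1 libraries above all D2 libraries. With the cortical marker level as a covariate the value was 1.77 and the call was lost (adjusted p = 0.0850). Ventrally the difference was -0.08 (95% interval -0.56 to 0.39, adjusted p = 0.789). Within EM libraries it was -0.69 (adjusted p = 0.0228), that is, lower in D1; the library with the highest D1 ventral level, replicate 15 at 30.3 CPM, is the only D1 library with the code OdP. Dorsal libraries were higher than ventral ones in D1 by 0.74 (SE 0.24, adjusted p = 0.0146) and lower in D2 (difference -0.89, SE 0.22, adjusted p = 0.00188). Within the OdP libraries alone the D2 value was -0.61 (adjusted p = 0.135).

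Npy (chr6:49822710-49829507, plus strand) encodes neuropeptide Y, which the striatum is known to express in a subset of the somatostatin interneurons. In prefrontal cortex it ran from 11.1 to 37.9 CPM (median 21), above every D1 striatal library. In striatum its median was 2.93 CPM in D1 dorsal (1.20 to 7.07), 0.772 in D2 dorsal (0.155 to 2.70), 1.60 in D1 ventral (0.725 to 2.50) and 1.42 CPM in D2 ventral libraries (0.318 to 3.80). The striatal groups overlapped. Cortex was higher by 2.70 (SE 0.18, adjusted p = 2.56e-16) than dorsal and by 3.40 (SE 0.14, adjusted p = 1.11e-23) than ventral D1 striatum.

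Dorsally Npy was 1.36 higher in D1 than in D2 (SE 0.21, adjusted p = 5.33e-06), and 0.29 (adjusted p = 0.824) with the cortical marker level as a covariate. Ventrally the difference was 0.13 (95% interval -0.24 to 0.50, adjusted p = 0.573), and with that covariate it was -0.63 (adjusted p = 0.0491). Dorsal exceeded ventral striatum in D1 by 0.69 (SE 0.20, adjusted p = 0.00595), a call lost with the same covariate (0.47, adjusted p = 0.0505). In D2 dorsal libraries were lower (difference -0.54, SE 0.20, adjusted p = 0.0410), and this call was lost under 7 alternatives, among them edgeR on the recovered reads (-0.66, adjusted p = 0.105), EM libraries alone (-0.51, adjusted p = 0.143) and the omission of D2 ventral striatum replicate 2 (-0.45, adjusted p = 0.0837), chosen after seeing the data. Summed GABA interneuron markers (Lhx6, Nos1, Pvalb, Htr3a, Calb2, Chodl, Sp8, Adarb2, Prox1) had medians of 26.2 CPM in D1 dorsal, 15.3 in D2 dorsal, 32.6 in D1 ventral, 31.1 in D2 ventral striatum and 106 CPM in cortex. Of the markers that entered, 2 of 5 were higher in D1 dorsally (12.8% of all genes), among them Adarb2 at 1.48. Lhx6 (0.24) and Nos1 (0.31), named after their values were seen, did not pass there (adjusted p = 0.439 and 0.159, limma). Ventrally 2 of 6 were higher in D1 and 2 lower (24.1% and 23.6% of all genes). Between regions in D2, 3 of 5 were lower dorsally (20.6% of all genes), with differences of -1.58 for Lhx6 and -1.57 for Nos1. In D1 2 of 6 were higher and 4 lower dorsally (10.1% and 24.5% of all genes), with 0.98 for Prox1, -2.45 for Calb2 and -1.02 for Nos1. Their part in the Sst and Npy values was not tested.

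Vip (chr10:5639218-5647617, plus strand) encodes vasoactive intestinal peptide, the mark of another interneuron class of the cortex. In prefrontal cortex it ran from 16.2 to 62.1 CPM (median 25.2). In striatum its highest value was 2.85 CPM, in a D1 dorsal library, and 13 of 16 D2 dorsal libraries held 3 reads or fewer. The cortical libraries lay above all others, with differences of 4.42 (SE 0.20, adjusted p = 6.62e-22) from D1 dorsal and 4.70 (SE 0.16, adjusted p = 3.09e-26) from D1 ventral striatum. Vip entered no striatal comparison, and no fold is given there. Dorsally 12 of 15 D1 libraries lay above every D2 library, and ventrally the medians were 0.496 CPM in D1 and 0.0738 CPM in D2 with overlapping libraries.

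Crh (chr3:19693401-19695396, minus strand) encodes corticotropin-releasing hormone, the stress peptide, which also occurs in cortical interneurons. It ran from 0.726 to 4.17 CPM in prefrontal cortex (median 1.19) and from 0.280 to 1.78 CPM in D1 ventral striatum (median 0.429). In D1 dorsal striatum its highest level was 0.702 CPM, and in all 16 D2 dorsal libraries it was at 3 reads or fewer, so no fold is given. It entered no comparison between groups. With no filter, cortex exceeded D1 dorsal striatum by 1.27 (SE 0.14, adjusted p = 9.39e-10) and D1 ventral striatum by 0.79 (SE 0.15, adjusted p = 2.22e-05), and D1 exceeded D2 by 0.68 ventrally (SE 0.13, adjusted p = 0.000216).

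Adcyap1 (chr17:93199017-93206537, plus strand) encodes PACAP, a relative of vasoactive intestinal peptide that raises cAMP through Adcyap1r1. In prefrontal cortex it ran from 0.772 to 3.42 CPM (median 1.95). It was the only member whose highest striatal mean was in D2 ventral libraries, at 0.548 ± 0.711 CPM (SD, n = 14) against 0.154 ± 0.129 CPM over the 15 ventral D1 libraries. The D2 ventral values ran from 0 to 2.46 CPM (median 0.330), and 5 of the 14 lay above every D1 ventral library. Cortex was higher by 1.85 (SE 0.15, adjusted p = 2.20e-14) than dorsal and by 1.85 (SE 0.13, adjusted p = 1.33e-16) than ventral D1 striatum. With no filter the ventral D1 minus D2 difference was -0.48 (SE 0.21, adjusted p = 0.0765). No fold is given between the D2 regions, since 10 of 16 D2 dorsal libraries were at 0.

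Whether the receptor difference itself depended on region was tested with an interaction contrast over the 4 striatal groups, (D1 minus D2 dorsally) minus (D1 minus D2 ventrally). Of 7 members tested, 2 passed with a positive value (1.93% of all genes) and 1 with a negative value (0.707%). The value was -2.05 for Nts (SE 0.33, adjusted p = 2.36e-05), 1.63 for Sst (SE 0.33, adjusted p = 0.00109) and 1.23 for Npy (SE 0.29, adjusted p = 0.00552). All 3 also passed within EM libraries, at -1.63 (adjusted p = 0.00646), 2.16 (adjusted p = 0.000779) and 1.37 (adjusted p = 0.00473), and with the cortical marker level as a covariate, at -2.06, 1.53 and 0.87 (adjusted p = 7.06e-05, 0.00444 and 0.0380). Cck had 1.00 (SE 0.30) and missed the threshold (adjusted p = 0.0555); it passed in 6 alternatives, among them the omission of D2 dorsal striatum replicate 1 (1.07, adjusted p = 0.0324), and was 0.49 (adjusted p = 0.196) with the cortical covariate. Tac1, Tac2 (0.29, SE 0.30, adjusted p = 0.688) and Cartpt did not pass, and Vip, Crh and Adcyap1 did not enter.

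**Figure D4:**
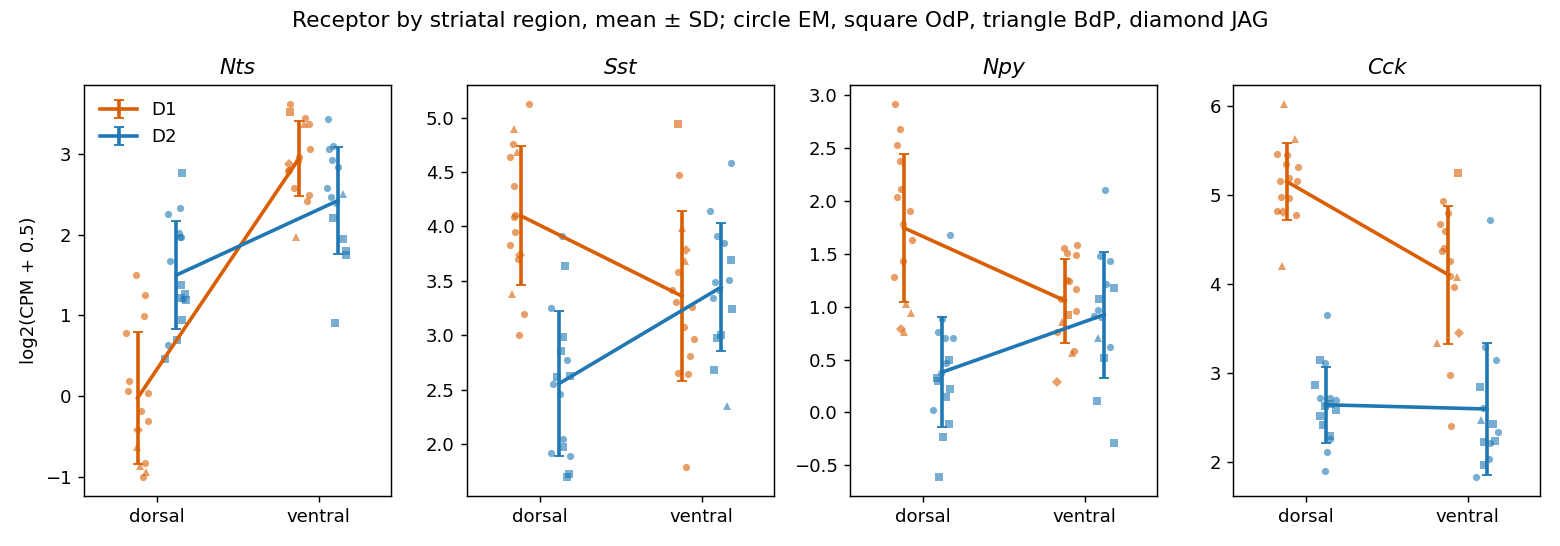
Nts, Sst, Npy and Cck in the 4 striatal groups, as log2(CPM + 0.5); points are libraries, their shape the letters of the library name, and lines join group means with SD bars. The D1 and D2 lines cross for Nts and for Sst; for Npy they lie 1.36 apart dorsally and 0.13 apart ventrally, and for Cck D1 lies above D2 in both regions.

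Members were also compared with one another across the libraries of each group, for members that averaged 1 CPM or more there. Of 91 pairs tested, 11 passed for both Pearson's r and Spearman's rho (permutation test, 100000 resamples, adjusted over all pairs), and all 11 were positive. Fewer passed with median-ratio scaling, as given in the closing section. How often pairs of other genes pass was not measured, so the count shows nothing particular to these members. In prefrontal cortex 5 of 28 pairs passed. Cck rose with Sst (r = 0.83, adjusted p = 0.00243; rho = 0.88, adjusted p = 0.000910), also within the 15 EM libraries (r = 0.81) and without the 2 libraries farthest from the median Cck (r = 0.80). Tac2 rose with Npy (r = 0.81, rho = 0.83, adjusted p = 0.00243 and 0.000910; 0.80 within EM, 0.80 without the farthest 2) and with Vip (r = 0.76, rho = 0.73, adjusted p = 0.00250 and 0.0136; 0.78 within EM, 0.80 without the farthest 2). Npy rose with Vip (r = 0.67, rho = 0.63, adjusted p = 0.0217 and 0.0362; 0.75 within EM, 0.55 without the farthest 2) and with Crh (r = 0.65, rho = 0.67, adjusted p = 0.0218 and 0.0251; 0.78 within EM, 0.53 without the farthest 2). Not the same cortical pairs passed within the code EM, where fewer libraries enter. Within the 15 EM libraries 6 of 28 passed, 3 of them among the 5 above. The pairs of Npy with Vip and with Crh did not pass there, with an adjusted p for rho of 0.125 and 0.0707 (permutation test). Cck with Vip (r = 0.89 within EM, 0.23 over all), Sst with Vip (0.87 and 0.55) and Tac2 with Cck (0.74 and -0.13) passed only within EM, and r differed in sign between the libraries of EM and all libraries for 5 of the 28 pairs.

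In D2 ventral striatum 5 of 21 pairs passed, 4 of them with Cartpt. Tac2 and Cartpt had r = 0.81 (rho = 0.80, adjusted p = 0.00243 and 0.0176; 0.80 without the farthest 2), Tac1 and Sst 0.81 (rho = 0.83, adjusted p = 0.00837 and 0.0136; 0.73), and Tac1 and Cartpt 0.74 (rho = 0.75, adjusted p = 0.0294 and 0.0322; 0.65). Cartpt had 0.74 with Sst (rho = 0.79, adjusted p = 0.0218 and 0.0176; 0.73 without the farthest 2) and 0.69 with Nts (rho = 0.74, adjusted p = 0.0332 and 0.0322; 0.60). Here the name codes stood apart in Cartpt, and within the 8 EM libraries r was 0.55, 0.53, 0.50, 0.48 and 0.28, in the same order, none of which passed. In D1 dorsal striatum 1 of 15 pairs passed, Cartpt with Npy (r = 0.74, rho = 0.76, adjusted p = 0.0218 and 0.0214; 0.60 within EM, 0.69 without the farthest 2). In D2 dorsal striatum 0 of 6 and in D1 ventral striatum 0 of 21 pairs passed.

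**Figure D5:**
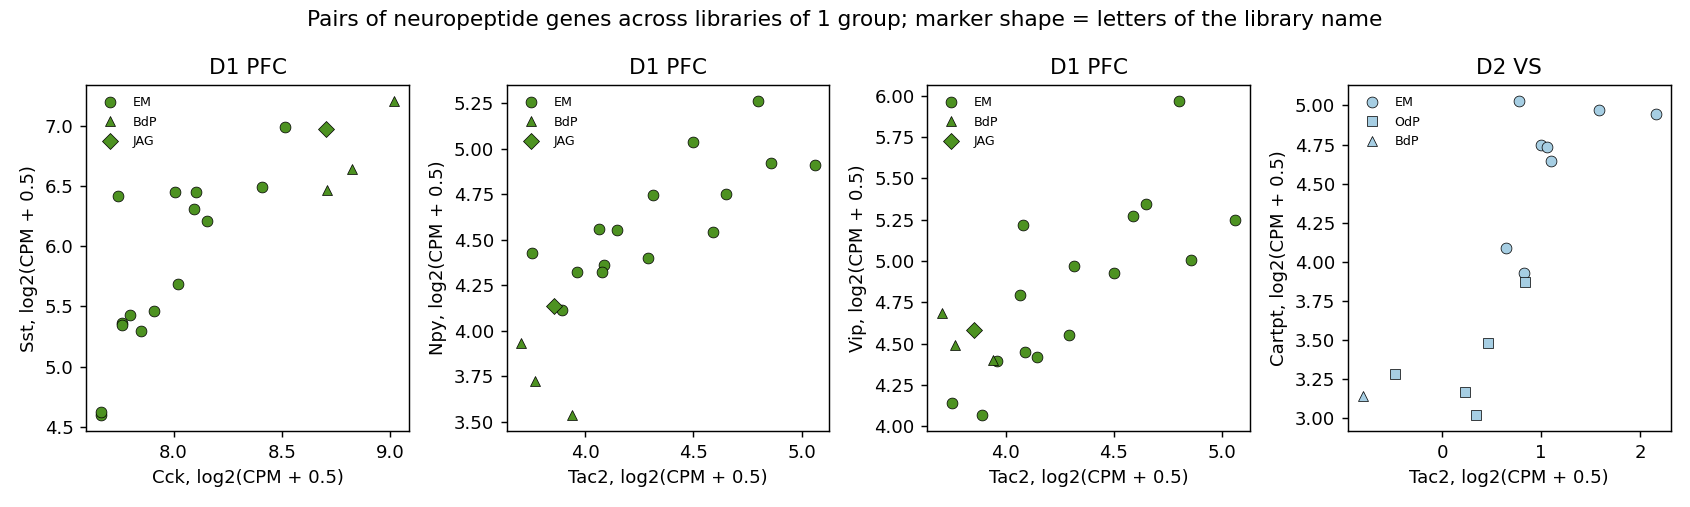
Pairs of members across the libraries of 1 group, as log2(CPM + 0.5) on both axes, with marker shape for the letters of the library name. In the 3 panels of prefrontal cortex the relation is also seen among the EM libraries (circles) alone, with r of 0.81, 0.80 and 0.78, while in D2 ventral striatum every OdP square lies below every EM circle in Cartpt.

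Genes of other peptides were scarce: of 39 further non-opioid peptide precursors in the table, such as Trh, Gal and Oxt, at most 1 entered any comparison. That gene was Avp, named after its values were seen, at 2.16 ± 1.64 CPM in the 15 D1 libraries and 0.626 ± 0.627 CPM (SD) in the 14 D2 libraries of ventral striatum (difference 1.10, SE 0.32, adjusted p = 0.00564). The 16 genes of peptide processing and dense-core vesicles were broadly present, and 15 or 16 entered each comparison. In the receptor comparisons 5 were higher and 1 lower in D1 of 16 dorsally (12.8% and 13% of all genes; median of the list 0.15, of all genes 0.02), and 7 were higher and 1 lower of 15 ventrally (24.1% and 23.6%; median 0.21, all genes 0.02). Scg2, which encodes a granin of the vesicle core, was higher in D1 in both (1.17 and 0.86), and Pcsk2, a prohormone convertase, was lower in both (-0.21 and -0.44).

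Between striatal regions, 6 processing genes were higher dorsally and 1 lower of 16 in D1 (10.1% and 24.5% of all genes; median 0.18, all genes -0.12). In D2 8 were higher and 2 lower of 16 (7.93% and 20.6% of all genes; median 0.30, all genes -0.12). Cpe, the carboxypeptidase that trims peptide intermediates, was higher dorsally by 0.87 in D1 and 0.90 in D2, and Scg2 was lower (differences -0.63 and -0.95). In prefrontal cortex 8 were higher and 3 lower of 16 against dorsal striatum (32.3% and 22.5% of all genes; median 0.23, all genes 0.05), and 11 were higher and 2 lower against ventral striatum (27.7% and 35.1%; median 0.37, all genes -0.07). Cadps2, a priming factor of dense-core vesicle release, had 76.3 ± 12.6 CPM (SD, n = 19) in cortex, 15.9 ± 6.04 (n = 15) in D1 dorsal and 2.94 ± 2.71 CPM (n = 16) in D2 dorsal striatum. Of this list 2 genes passed the interaction test, Cadps2 at 1.64 (adjusted p = 0.000969) and Pam, which amidates peptides, at -0.54 (adjusted p = 0.0119), with 1.93% of all genes called higher and 0.707% lower.

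Of 23 receptors and binding proteins of the members in the table, 9 entered the dorsal receptor comparison, 6 higher and 1 lower in D1 (12.8% and 13% of all genes; median 0.57, all genes 0.02). Ventrally 10 entered, with 5 higher and 1 lower (24.1% and 23.6%; median 0.38, all genes 0.02). Tacr1, the substance P receptor, ran opposite to its ligand gene Tac1: its median was 1.48 CPM in D1 and 5.63 CPM in D2 dorsal striatum (difference -1.66, adjusted p = 3.53e-09), and 1.74 against 4.65 CPM ventrally (difference -1.26, adjusted p = 7.71e-09). Cholinergic interneurons carry D2 receptors and are known to express Tacr1. The 3 cholinergic markers in the table (Chat, Slc5a7 and Lhx8) summed to medians of 6.32 and 12.2 CPM in D2 dorsal and ventral striatum against 0.751 and 1.34 CPM in D1, and their part in the Tacr1 values was not tested.

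Npy1r, a neuropeptide Y receptor, was higher in D1 by 0.68 (adjusted p = 0.000415) dorsally and 0.44 (adjusted p = 0.0145) ventrally. Between regions, Adcyap1r1, the PACAP receptor, was lower dorsally (differences -0.88 in D1 and -0.85 in D2), and Sort1, a sorting receptor that binds neurotensin, was higher by 0.69 and 0.60. In these comparisons 2 receptors were higher and 3 lower of 11 in D1 (10.1% and 24.5% of all genes; median 0.24, all genes -0.12), and 1 was higher and 2 lower of 9 in D2 (7.93% and 20.6%; median -0.12, all genes -0.12), few genes and shares near those of all genes. In prefrontal cortex 10 receptors were higher and 2 lower of 14 against dorsal striatum (32.3% and 22.5% of all genes; median 0.88, all genes 0.05). Against ventral striatum 12 were higher and 2 lower of 14 (27.7% and 35.1%; median 0.79, all genes -0.07). Cckbr, the main brain receptor of cholecystokinin, had 16.6 ± 3.36 CPM (SD, n = 19) in cortex but 3.23 ± 0.740 CPM over the 15 dorsal D1 libraries (difference 2.20, adjusted p = 1.97e-21). Crhbp, which binds corticotropin-releasing hormone, was higher in cortex by 2.62 and 2.17. The interaction test passed for 1 of 14, Sstr2, at 0.89 (adjusted p = 0.0158; 1.93% of all genes called higher).

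Pools with 2 males and pools with 1 male were compared over 77 libraries, with group as a term, since 2 cortex pools have an incomplete label. Of 9 members tested, 0 passed (limma, and also edgeR), with 0.0651% of all genes called by limma. At an unadjusted p under 0.05 (limma) there was 1, Adcyap1, named after its values were seen, against 1671 of all 12290 genes tested. The log2 differences ran from -0.22 for Adcyap1 (95% interval -0.42 to -0.01) to 0.25 for Sst (95% interval -0.06 to 0.56). Between these lay Tac1, Tac2, Cartpt, Nts, Cck, Npy and Vip, and Crh did not enter.

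The genes most like 6 of the other members, by the same residual measure over 79 libraries and as a description only, had lower r than that of Cck. They were Tmed9 for Sst (0.73), Mtss1l for Tac2 (0.64), Cck for Vip (0.59), Chn2 for Cartpt (0.59), Eef1a1 for Nts (0.52) and Hcfc1r1 for Npy (0.48).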

How the data were processed

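The authors deposited CPM for every gene and library, scaled to a total they do not name, in 1 table of 79 libraries. Per the submitters' processing notes, reads were handled with Trim Galore 0.4.2, cutadapt 1.9.1, FastQC and HISAT2 on genome build GRCm38; the counting program and annotation are not given in the sources used here. Per the labels' protocols, cDNA was amplified and read as read pairs, and no molecular identifiers are described. Column names gave the samples, and 0 columns were left out. Dividing the deposited CPM by the value of 1 read gave whole reads (100% within a tolerance of 0.01), which edgeR used. A library's CPM added up to 309566 at the lowest and 401527 at the highest, so the authors' total held reads outside listed genes. No 2 libraries of a group were near-copies: over 592 pairs the lowest chi-square was 7.96 per degree of freedom.

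Fits used limma 3.58.1 in R 4.3.3 (lmFit, eBayes with a trend) on log2(CPM + 0.5), a scale that understates changes of low genes, with the compared groups alone, genes with at least 1 CPM in as many libraries as the smallest group, two-sided tests and Benjamini-Hochberg adjustment over all genes tested. Alternatives were a pseudocount of 0.1 or 1, no filter, median-ratio scaling, scaling to reads in genes, EM libraries only, the name code, the gene-mapped read share or the cortical marker level as a covariate, all 5 groups in 1 fit, edgeR 4.0.16, and, chosen after seeing the data, blocks of consecutive library names and the omission of single libraries. The fits were tested on simulated data. The members and lists were chosen with earlier results of these data known. All 10 members are named or plotted in every comparison; of other lists at most 2 called genes per direction that averaged 5 CPM or more where higher, and the 3 most alike genes per member, could be named; the genes most like Tac1 are not reported here. Genes of the lists said to be named after their values were seen fall outside that rule. Locations and exonic lengths are from GENCODE M21 (GRCm38). No member's exons overlap those of another gene there.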

Additional observations from a re-analysis of the deposited data

Results flagged for a closer look

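For 3 members the D1 minus D2 difference itself differed between dorsal and ventral striatum, by the interaction test. The dorsal minus ventral value of that difference was -2.05 for Nts, 1.63 for Sst and 1.23 for Npy, with adjusted p of 2.36e-05, 0.00109 and 0.00552 (limma). For Nts the receptor difference was -1.52 dorsally and 0.52 ventrally. For Sst it was 1.54 and -0.08, and for Npy 1.36 and 0.13. The cortical marker sum had medians of 103 CPM in D1 and 8.86 CPM in D2 dorsally and of 69.1 and 12.5 CPM ventrally. By the interaction test (limma) no single one of the 6 markers passed, with adjusted p from 0.0715 to 0.816. All 3 interaction values passed with that marker level as a covariate. Of 7 striatal projection neuron markers, 2 passed the interaction test (limma), both with a negative value. They were Adora2a (-2.09, adjusted p = 1.12e-05) and Drd2 (adjusted p = 1.82e-05). Of 6 GABA interneuron markers tested 0 passed, with a median value of 0.64 (all genes 0.01). The part of these cells in the 3 interaction values was not tested.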

How the results depend on the processing

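Of 607 values of 48 member results under the alternatives, 563 kept their direction and their side of the threshold, 23 lost and 7 gained a call, and 14 changed sign. Without a filter, D1 against D2 in dorsal striatum had 7 members higher (9.82% of all genes under that setting) and prefrontal cortex against dorsal striatum 2 lower (15.9%). With the cortical marker level as a covariate, D1 against D2 had 2 higher and 0 lower dorsally (1.05% and 0.595% of all genes) and 1 higher and 1 lower ventrally (4.85% and 8.49%). Ventrally the gene-mapped read share as a covariate left 2 higher (5.64%), and EM libraries gave 1 lower (23.7%). OdP libraries alone gave 1 member lower dorsally in D2 (12%).

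No result called in the main analysis changed sign. Of the others, the ventral D1 minus D2 value was -0.19 (EM) and -0.17 (cortical marker level) for Cartpt. For Sst it was 0.022 (scaling to reads in genes), 0.55 (share of reads) and 0.014 (edgeR), and for Npy -0.0048 (EM), -0.0074 (name code), -0.12 (share of reads) and -0.63 (cortical marker level, adjusted p = 0.0491). Cck in D2, dorsal minus ventral, was -0.12 in EM libraries and ran from -0.020 without D2 dorsal striatum replicate 1 to 0.21 without D2 ventral striatum replicate 2, omissions chosen after seeing the data. The interaction with the cortical marker level was -0.12 for Tac2 and -0.26 for Cartpt, and with a pseudocount of 1 it was -0.0022 for Cartpt. The pairs that passed numbered 7 with median-ratio scaling and 6 in EM libraries. The cause of these changes was not tested, except that fewer libraries enter the EM and OdP fits.

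Genes called over the whole table moved by over 1.5 times in 5 comparisons. For D1 against D2 in dorsal striatum they went from 2871 to 1389 (EM), 1550 (name code) and 182 (cortical marker level). Ventrally they went from 5443 to 1218 (share of reads) and 1522 (cortical marker level), and scaling to reads in genes gave 3702 higher and 1885 lower instead of 2751 and 2692. Dorsally that scaling gave 1675 higher and 1145 lower instead of 1424 and 1447. For dorsal against ventral striatum in D2, OdP libraries gave 2074 genes instead of 3189. For the interaction 313 became 480 (name code), 476 (cortical marker level) and 695 (replicate block), and for the number of males 8 became 0 (no filter), 15, 14, 225, 215 and 24 (median-ratio scaling, scaling to reads in genes, EM, name code, share of reads). The labels state no pairing, but names run consecutively across regions with equal numbers of males, and a replicate block of such runs was fitted after seeing the data. Of the candidate pairs, 13 of 14 (D1, dorsal and ventral), 11 of 13 (D2), 11 of 14 (cortex and dorsal) and 11 of 14 (cortex and ventral) deviated together with a correlation over 0.1, and 8, 1, 5 and 7 correlated best with their own partner. Not every pair did so. Among other pairs with the same letters 60.5%, 70.3%, 49.7% and 48.1% also exceeded 0.1. For D1, dorsal and ventral, the median correlation was 0.398 in candidate and 0.148 in other pairs, and for D2 it was 0.313 and 0.273. For cortex and dorsal striatum it was 0.261 and 0.0985, and for cortex and ventral striatum 0.316 and 0.0928. Whether such libraries share mice was not tested. With this block the interaction of Cck passed (1.02, adjusted p = 0.0114), and no other call of a member changed. Depth limits Vip, Crh, Adcyap1, dorsal Tac2 and Cartpt, and Nts in D1 dorsal striatum and, with 12 of 19 libraries, in cortex, where libraries held 3 reads or fewer.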
